A study of Mus musculus with 9 samples.

Results

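The miR-148a, miR-148b and miR-152 family was described in small RNA libraries of the subcutaneous fat of mice with an endothelial knockout of Ago1, labelled Homo KO or Hete KO, and of their wild-type (WT) littermates. The family consists of 3 hairpins, each of which gives a 3p and a 5p arm. Its members were taken by name, and all 6 arms were among the 860 mature miRNAs listed in each library. All 6 also passed the filter on low values, as did 489 miRNAs in all. The groups were Homo KO, Hete KO and WT, with 3 mice each and 1 library per mouse. All mice were sampled at 24 weeks of age, after 16 weeks on a high-fat, high-sucrose diet that began at 8 weeks. The labels do not give the Cre driver or the strain, and the strain field repeats the tissue. Argonaute 1, which Ago1 encodes, binds mature miRNAs and carries them to target mRNAs. The knockout concerns endothelial cells, whereas the libraries hold RNA of the whole tissue, in which fewer cells of a type and less RNA per cell cannot be told apart. The files list mature miRNAs and no mRNA, so Ago1 itself was not analysed here.

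A miRNA hairpin is cut into a duplex of 5p and 3p arms, and an Argonaute protein usually keeps one of them as the guide strand while the other, the passenger strand, is mostly degraded. The guide finds its targets mainly through its seed, the bases 2 to 8 from the 5′ end. In this family the 3p arm is the usual guide. miR-148a-3p is known to repress the LDL receptor and the cholesterol exporter ABCA1, and it has been reported to promote adipocyte differentiation in human stromal cells. miR-148a-3p and miR-152-3p are also known to repress the DNA methyltransferase DNMT1.

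The 3p arms are shown first because they are the guides and share their seed, which is in capitals.
miR-148a-3p: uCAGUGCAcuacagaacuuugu
miR-148b-3p: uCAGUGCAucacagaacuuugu
miR-152-3p: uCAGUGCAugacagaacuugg
Of 1679 mature mouse miRNAs in the RefSeq table, these 3 were the ones with CAGUGCA at bases 2 to 8. Counted from the 5′ end, miR-148b-3p differed from miR-148a-3p by C9U and U10C, with 20 of 22 bases identical. Against miR-148a-3p, miR-152-3p carried C9U, U10G and U20G and was shorter by 1 base. The sources used here do not say how reads that cannot be placed with certainty between such similar arms were counted.

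The 5p arms are shown because the results below turn on miR-152-5p, and their seeds are again in capitals.
miR-148a-5p: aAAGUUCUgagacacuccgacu
miR-148b-5p: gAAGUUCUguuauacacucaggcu
miR-152-5p: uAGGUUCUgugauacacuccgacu
The seed AAGUUCU was shared by miR-148a-5p and miR-148b-5p and by no other miRNA of the RefSeq table. The seed AGGUUCU of miR-152-5p occurred in no other. With 19 of 24 bases identical, miR-152-5p differed from miR-148b-5p by G1U, A3G, U11G, A20C and G22A.

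The hairpins are shown to place the arms, which are in capitals, on either side of the loop.
Mir148a: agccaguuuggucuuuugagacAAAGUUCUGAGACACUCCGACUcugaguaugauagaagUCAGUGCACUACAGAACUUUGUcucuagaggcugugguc
Mir148b: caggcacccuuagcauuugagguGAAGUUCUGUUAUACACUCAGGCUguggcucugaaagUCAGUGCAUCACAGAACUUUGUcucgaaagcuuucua
Mir152: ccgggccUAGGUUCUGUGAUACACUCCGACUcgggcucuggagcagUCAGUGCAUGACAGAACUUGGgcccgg
In GRCm38, Mir148a lies between genes on the minus strand (chr6:51269812-51269910), 13622 bases from the nearest gene, the lincRNA gene Gm32479, and 162760 bases from the nearest protein-coding gene, Nfe2l3. Mir148b lies on the plus strand in an intron of Copz1 (chr15:103285125-103285221), 12411 bases from the start of that gene. Mir152 lies on the plus strand in an intron of Copz2 (chr11:96850393-96850465), 523 bases from the start. Copz1 and Copz2 are paralogs that encode zeta subunits of the COPI coat, which shapes vesicles of the Golgi, and each hairpin is on the same strand as its host. The Mir152 hairpin was the shortest, at 73 bases against 99 for Mir148a and 97 for Mir148b, and had the highest GC content, 61.6% against 45.5% and 45.4%.

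Levels are on the deposited log2 scale, on which the libraries have nearly the same ranked values and differ in how many miRNAs sit at the lowest value. As the remaining sign of depth, 119.7 ± 19.8 miRNAs per library sat at the lowest value in Homo KO, 119.3 ± 28.4 in Hete KO and 79.0 ± 21.9 in WT (SD, n = 3 each). The mean of 4 skeletal muscle miRNAs was 8.42 ± 2.89 in Homo KO, 11.05 ± 2.93 in Hete KO and 11.56 ± 3.47 in WT (SD, n = 3 each), and it was highest in Hete KO replicate 2 (14.35), WT replicate 2 (13.73) and WT replicate 1 (13.40). Their summed level ran from 11.57 to 16.35 in Homo KO, from 14.28 to 20.10 in Hete KO and from 12.24 to 19.19 in WT on the log2 scale. Endothelial markers averaged 11.99 in Homo KO, 11.73 in Hete KO and 12.04 in WT, and mural and stromal markers averaged 15.20 in Homo KO, 15.15 in Hete KO and 15.14 in WT. Leukocyte markers averaged 11.95 in Homo KO, 11.49 in Hete KO and 11.48 in WT, and erythroid markers 10.93 in Homo KO, 10.48 in Hete KO and 11.24 in WT. For epithelial markers the mean was 6.39 ± 0.34 in Homo KO, 7.06 ± 1.67 in Hete KO and 5.82 ± 0.21 in WT (SD, n = 3 each). In Hete KO it was 8.97 in replicate 1, against 6.29 and 5.91 in replicates 2 and 3. For liver markers the mean was 11.74 ± 1.14 in Homo KO, 12.15 ± 0.13 in Hete KO and 11.59 ± 2.86 in WT (SD). In WT it was 8.29 in replicate 1, against 13.25 in each of replicates 2 and 3. All 28 markers of these lists were in the files. Summed on the linear scale, where the abundant markers weigh most, several lists lay apart between genotypes. Among single tested miRNAs, 32.7% lay apart in either direction in Homo KO against WT and 17.2% in Hete KO against WT. The endothelial sum, on the log2 scale, was 17.64 to 17.77 in Homo KO, 17.10 to 17.74 in Hete KO and 17.81 to 18.20 in WT, so that all 6 knockout libraries were below all 3 WT libraries. The erythroid sum was also lower in all 6, at 13.03 to 13.48 in Homo KO, 12.14 to 13.46 in Hete KO and 13.48 to 14.15 in WT, although Homo KO and WT nearly met. The epithelial sum was higher in all 6, at 12.80 to 12.96 in Homo KO, 12.90 to 12.97 in Hete KO and 11.79 to 12.23 in WT. Most of it was miR-203-3p, with mean levels of 12.84 in Homo KO, 12.74 in Hete KO and 11.89 in WT. The leukocyte sum was 14.35 to 14.67 in Homo KO, 13.76 to 14.22 in Hete KO and 13.89 to 14.20 in WT, apart from WT in Homo KO only. The tested endothelial miRNAs were miR-126a-3p and miR-126a-5p, and neither was called. Against WT, miR-126a-5p had a log2 fold change of -0.47 ± 0.14 in Homo KO and -0.54 ± 0.14 in Hete KO (SE, limma adjusted p = 0.0869 and 0.0825). Called higher in Homo KO than in WT were the leukocyte marker miR-142a-5p (1.26 ± 0.25) and the epithelial marker miR-203-3p (0.95 ± 0.18; SE, limma adjusted p = 0.0314 each). No miRNA was called in that comparison when the count of miRNAs at the lowest value entered the fit. That count was itself higher on average in both knockout groups than in WT, so the fit cannot tell depth and genotype apart.

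The 3p arms were abundant and the 5p arms scarce, in the same order in every library. Over the 9 libraries miR-148a-3p had a mean level of 15.67 and ranked between 17 and 25 of 860. It was followed by miR-152-3p at 13.38 (ranks 49 to 59) and miR-148b-3p at 12.09 (ranks 74 to 84). The 5p arms were at 7.52 for miR-148a-5p (ranks 217 to 242), 6.14 for miR-152-5p (ranks 256 to 347) and 4.55 for miR-148b-5p (ranks 371 to 461). No neighbours in this order overlapped over the 9 libraries, and the closest pair by mean difference, miR-152-3p over miR-148b-3p, was apart by 1.30 ± 0.29 on the log2 scale (SD, n = 9). The smallest difference within a library, 0.68, was that of miR-148a-5p over miR-152-5p. The mature arms are between 21 and 24 bases long, and the sources used here do not say whether the authors' values were divided by length.

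The levels varied little between mice for most arms. The SD over the 9 libraries was 0.15 for miR-148b-3p, and 6.54% of the tested miRNAs had a smaller one. It was 0.20 for miR-148a-5p, 0.24 for miR-152-3p and 0.25 for miR-148a-3p, all below the median SD of 0.34 over all tested miRNAs. For miR-152-5p and miR-148b-5p the SD was 0.41 each, above that median. The range over the 9 libraries was 1.10 for miR-152-5p and 1.31 for miR-148b-5p on the log2 scale.

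On the linear scale, 2 to the power of the value minus 1, the family made up 0.998%, 1.27% and 1.12% of the summed miRNA level in Homo KO replicates 1, 2 and 3, 1.05%, 0.871% and 1.20% in Hete KO and 0.758%, 1.004% and 0.937% in WT. The mean share was 1.13% ± 0.13 in Homo KO, 1.04% ± 0.16 in Hete KO and 0.90% ± 0.13 in WT (SD, n = 3 each), and the groups overlapped. Most of it came from miR-148a-3p, which held between 75.5% and 80.2% of the family's level in the 9 libraries. The share of miR-152-3p was between 13.9% and 17.6% and that of miR-148b-3p between 5.13% and 8.17%. The 3p arms together held between 99.4% and 99.6%. Nearly all of the family's level in every genotype was thus in arms whose reference sequence has CAGUGCA at bases 2 to 8. The values do not show where single reads began.

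**Figure D1:**
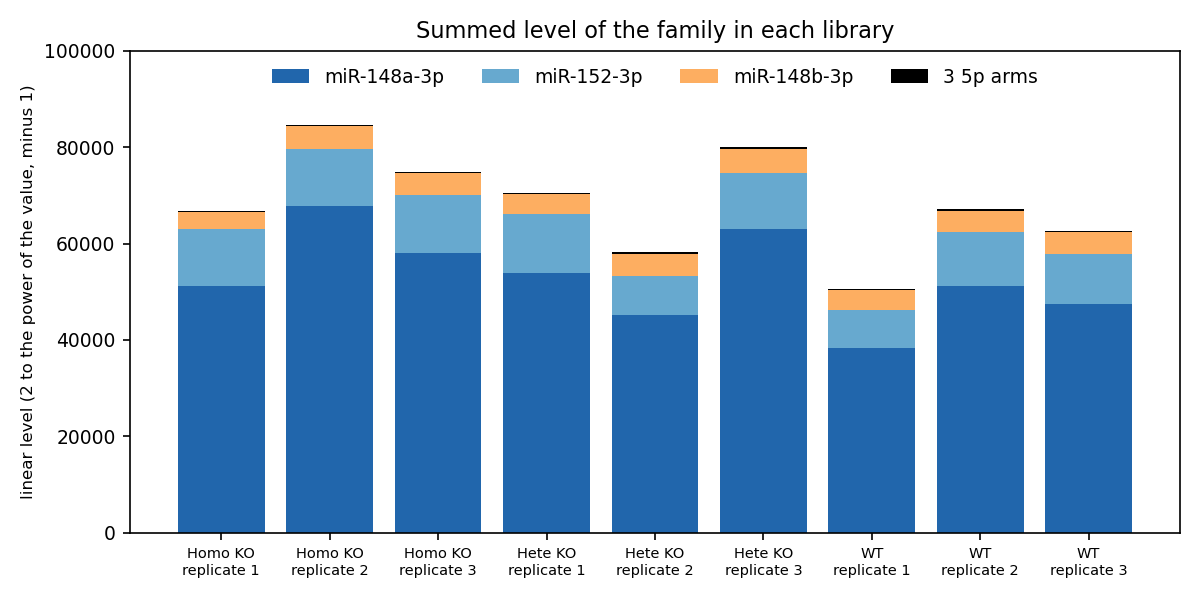
Bars give the summed linear level of the family in each library, split by arm, with 3 mice in each of Homo KO, Hete KO and WT and no averaging. miR-148a-3p holds between 75.5% and 80.2% of every bar, and the 5p arms are a thin line at the top.

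The comparisons with WT ask how the family differed with the endothelial knockout, and Homo KO was also set against Hete KO. None of the 6 arms passed the test in any of these comparisons (limma, Benjamini-Hochberg adjusted p under 0.05 over 489 miRNAs). At an unadjusted p under 0.05 there was 1 of the 6 arms in Homo KO against WT, 1 in Hete KO against WT and 0 in Homo KO against Hete KO, while 23.9% of all tested miRNAs reached such a p in Homo KO against WT, 15.7% in Hete KO against WT and 8.38% in Homo KO against Hete KO. Among all tested miRNAs, 16 (3.27%) passed in Homo KO against WT, 2 (0.409%) in Hete KO against WT and 0 (0.0%) in Homo KO against Hete KO, where 41 had an unadjusted p under 0.05. A moderated F-test across the 3 genotypes passed for 6 miRNAs (1.23%), none of them in the family. The smallest p in the family was that of miR-152-5p, whose level was lower in all 6 knockout mice than in all 3 WT mice. Both comparisons with WT use the same 3 WT mice, so they are given side by side and are not independent.

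miR-148a-3p, the main guide of the family, was at 15.65, 16.05 and 15.82 in Homo KO replicates 1, 2 and 3, at 15.72, 15.46 and 15.94 in Hete KO and at 15.22, 15.65 and 15.54 in WT. The highest value was in Homo KO replicate 2 and the lowest in WT replicate 1, and each knockout group overlapped with WT. In Homo KO the overlap was a tie of replicate 1 with WT replicate 2 at 15.65. The log2 fold change was 0.37 ± 0.17 in Homo KO against WT (SE, limma, 95% confidence interval -0.01 to 0.75, adjusted p = 0.215), a fold of 1.29. It was 0.24 ± 0.17 in Hete KO against WT (interval -0.14 to 0.62, limma adjusted p = 0.521). The intervals include 0 and also an increase of over 0.5. The value for Homo KO against WT was 0.22 when the mean of the muscle miRNAs entered the fit as a covariate. That was the lowest of the alternatives run, and the highest was 0.47, without Homo KO replicate 1 (limma adjusted p = 0.226). Of the 3 libraries with the most muscle miRNA, Hete KO replicate 2 and WT replicate 1 had the lowest value of their genotype and WT replicate 2 the highest of its own.

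The passenger arm miR-148a-5p was at 7.43, 7.74 and 7.75 in Homo KO, at 7.43, 7.66 and 7.59 in Hete KO and at 7.52, 7.47 and 7.09 in WT. All groups overlapped, with WT replicate 3 the lowest. Its log2 fold changes were 0.28 ± 0.17 in Homo KO against WT and 0.20 ± 0.17 in Hete KO against WT (SE, limma adjusted p = 0.354 and 0.626).

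miR-148b-3p, which carries the same seed and comes from the Copz1 intron, was at 11.74, 12.21 and 12.12 in Homo KO, at 12.02, 12.16 and 12.27 in Hete KO and at 12.02, 12.12 and 12.12 in WT. Homo KO replicate 1 was the lowest of the 9, and the groups overlapped. The log2 fold change was -0.06 ± 0.15 in Homo KO against WT (95% confidence interval -0.39 to 0.27, limma adjusted p = 0.795) and 0.07 ± 0.15 in Hete KO against WT (interval -0.26 to 0.40, limma adjusted p = 0.865). Changes larger than 0.40 in either direction thus lay outside both intervals. Without Homo KO replicate 1 the value for Homo KO against WT was 0.08.

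miR-148b-5p, the rarest arm, was at 4.19, 5.29 and 4.52 in Homo KO, at 4.62, 4.35 and 4.85 in Hete KO and at 3.99, 4.87 and 4.27 in WT. Its spread within Homo KO and within WT was wider than the difference between them. The log2 fold changes were 0.29 ± 0.36 in Homo KO against WT and 0.23 ± 0.36 in Hete KO against WT (SE, limma adjusted p = 0.621 and 0.812). Without Homo KO replicate 2, the highest of the 9, the value for Homo KO against WT was -0.02.

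**Figure D2:**
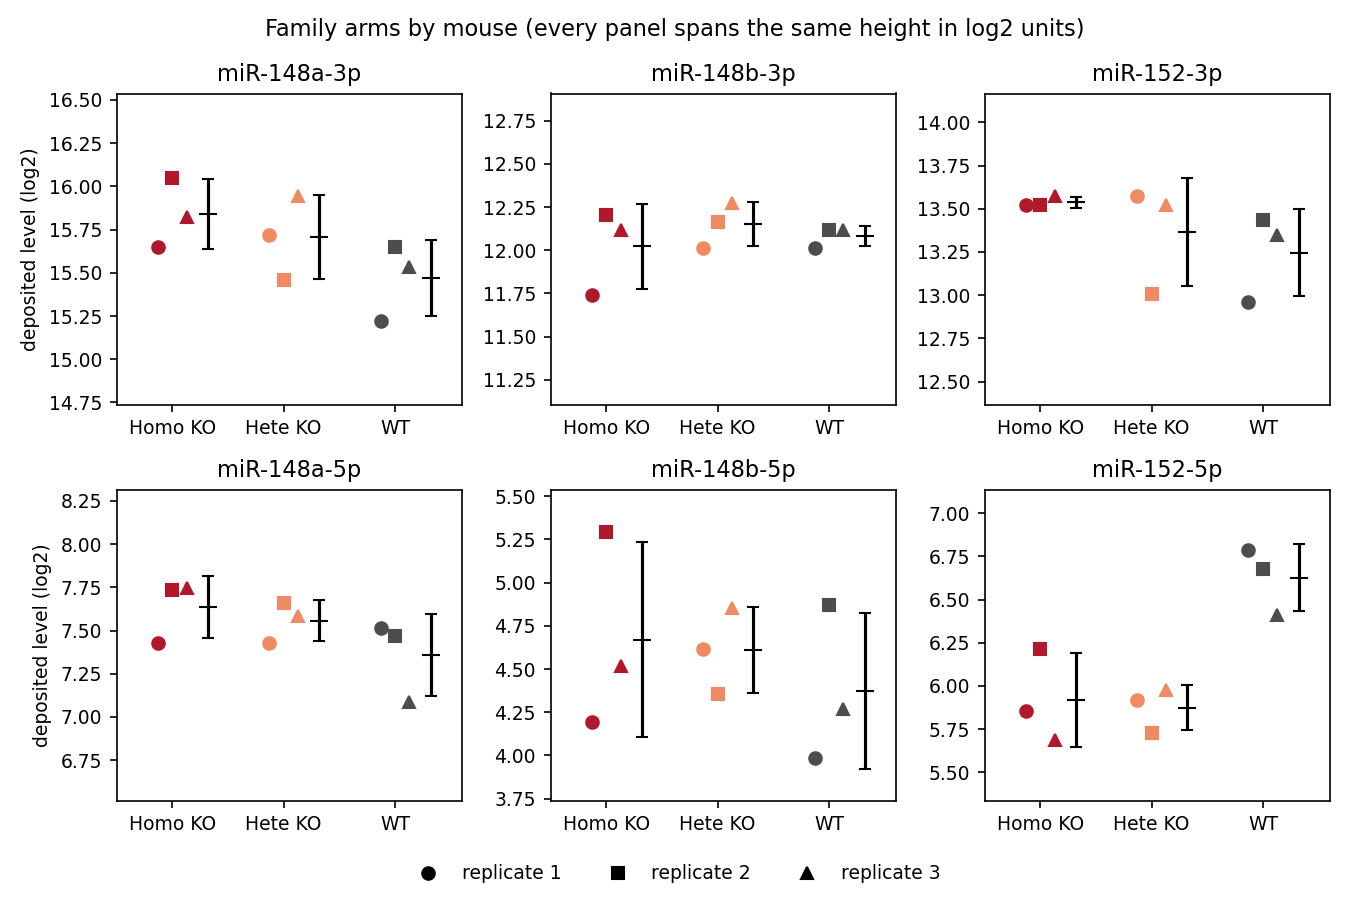
Points give the deposited log2 level of each family arm in each mouse, with marker shape for the replicate number and the bar for mean and SD (n = 3) beside the points. The 6 knockout mice lie below the 3 WT mice for miR-152-5p, and the knockout and WT points overlap for miR-148a and miR-148b arms.

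miR-152-3p, the guide from the Copz2 intron, was at 13.52, 13.52 and 13.57 in Homo KO, at 13.57, 13.01 and 13.52 in Hete KO and at 12.96, 13.43 and 13.35 in WT. The 3 Homo KO mice were all above the WT mice, by 0.086 between the nearest values, while Hete KO overlapped with WT. In Homo KO against WT, 18.4% of all tested miRNAs were higher without overlap and 32.7% lay apart in either direction, and in Hete KO against WT 17.2% lay apart in either direction. The log2 fold change was 0.29 ± 0.18 in Homo KO against WT (95% confidence interval -0.11 to 0.70, limma adjusted p = 0.365) and 0.12 ± 0.18 in Hete KO against WT (limma adjusted p = 0.801). The lowest values were in WT replicate 1 and Hete KO replicate 2, and WT replicate 2, also rich in muscle miRNA, was the highest WT library. Without WT replicate 1 the value for Hete KO against WT was -0.02.

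miR-152-5p, the passenger arm of the same hairpin, was at 5.85, 6.22 and 5.68 in Homo KO, at 5.92, 5.73 and 5.97 in Hete KO and at 6.79, 6.68 and 6.41 in WT. All 6 knockout values lay below all 3 WT values. On the linear scale these levels were 60.2 ± 11.8 in Homo KO, 57.8 ± 5.12 in Hete KO and 98.3 ± 13.0 in WT (SD, n = 3 each). The log2 fold change was -0.71 ± 0.19 in Homo KO against WT (SE, 95% confidence interval -1.15 to -0.27, limma adjusted p = 0.0656), a fold of 0.612. In Hete KO against WT it was -0.75 ± 0.19 (interval -1.19 to -0.31, limma adjusted p = 0.0879), a fold of 0.594. Neither passed the threshold of 0.05, and the F-test across genotypes gave an adjusted p of 0.104. By p this arm was at place 39 of 489 in Homo KO against WT and at place 20 in Hete KO against WT. Groups lay apart with the knockout lower in 14.3% of tested miRNAs in Homo KO and in 8.59% in Hete KO against WT.

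For miR-152-5p the fit was repeated with a covariate. With the mean of the muscle miRNAs the log2 fold changes were -0.71 in Homo KO and -0.75 in Hete KO against WT (limma adjusted p = 0.196 and 0.122). With the count of miRNAs at the lowest value, which went partly with genotype, they were -0.79 in Homo KO and -0.84 in Hete KO (limma adjusted p = 0.194 and 0.357). Leaving out the 3 libraries with the most muscle miRNA left WT replicate 3 as the only WT mouse, the lowest of the 3 for this arm, and gave -0.49 in Homo KO and -0.46 in Hete KO (limma adjusted p = 0.438 and 0.761). That lone library is assumed to vary like the other groups. The endothelial and erythroid marker sums were likewise lower, and the epithelial sum higher, in all 6 knockout libraries than in WT. In Homo KO against WT, though, 1 of 3 erythroid markers was higher and 1 of 7 epithelial markers was lower. The part of these sums in the result for miR-152-5p was not tested.

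**Figure D3:**
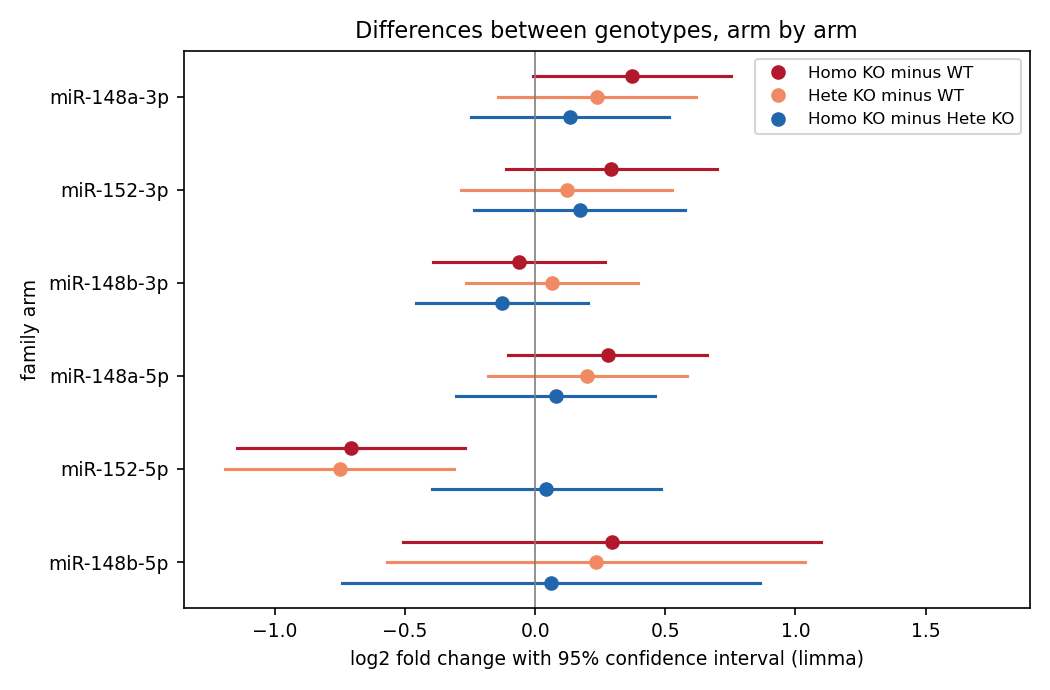
Points give log2 fold changes of each arm between genotypes and lines the 95% confidence intervals of the limma fit, arms ordered by mean level. The intervals of miR-152-5p against WT, -1.15 to -0.27 in Homo KO and -1.19 to -0.31 in Hete KO, leave out 0, while its adjusted p values are 0.0656 and 0.0879, and all other intervals include 0.

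Between Homo KO and Hete KO no arm differed by more than the spread between mice. The log2 fold change of Homo KO against Hete KO was 0.13 ± 0.17 for miR-148a-3p (95% confidence interval -0.25 to 0.51), -0.13 ± 0.15 for miR-148b-3p (-0.46 to 0.20) and 0.17 ± 0.18 for miR-152-3p (-0.23 to 0.58). For the 5p arms it was 0.08 ± 0.17 for miR-148a-5p, 0.06 ± 0.36 for miR-148b-5p and 0.04 ± 0.19 for miR-152-5p (SE). The limma adjusted p lay between 0.870 and 0.981 for the 6 arms. All 6 arms overlapped between these genotypes, as did all but 12.3% of tested miRNAs.

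The arms of each hairpin were also compared within each library. The arms of miR-152 lay far apart in the ranking, at 49 to 59 and 256 to 347. Their difference therefore need not cancel an effect of the library on scarce miRNAs. For miR-152 the 3p arm exceeded the 5p arm by 7.67, 7.30 and 7.89 on the log2 scale in Homo KO replicates 1, 2 and 3, by 7.66, 7.28 and 7.54 in Hete KO and by 6.17, 6.76 and 6.93 in WT. All 6 knockout libraries thus had a larger arm difference than all 3 WT libraries. The ratio of 3p to 5p ran from 158 to 237 in Homo KO, from 155 to 202 in Hete KO and from 72.0 to 122 in WT. The arm difference was 0.999 higher on the log2 scale in Homo KO than in WT and 0.87 higher in Hete KO than in WT (exact two-sided permutation test, p = 0.1 each, the smallest that 3 mice against 3 allow, and adjusted p = 0.45 each over 9 tests). Part of the difference in Homo KO came from the 3p arm, with 0.29, and the larger part from the 5p arm, with -0.71.

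The same arm difference was formed for 141 hairpins whose tested arms have names that differ only in 3p or 5p. Hairpins with a locus number in the name of a single arm were left out, so the shares below do not cover them. Among these, miR-26a-1-3p had log2 fold changes against WT of 1.94 ± 0.45 in Homo KO and 1.27 ± 0.45 in Hete KO. For miR-26a-5p they were 0.34 ± 0.12 and 0.30 ± 0.12 (SE). In 9.22% of them it was higher without overlap in Homo KO than in WT, and in 9.93% in Hete KO than in WT. A difference of at least the size seen for miR-152 was reached by 4 of the 141 (2.84%, miR-152 included) in Homo KO against WT and by 3 (2.13%) in Hete KO against WT.

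The other hairpins of the family had arm differences that overlapped between genotypes. For miR-148a the 3p arm exceeded the 5p arm by 8.20 ± 0.12 in Homo KO, 8.15 ± 0.30 in Hete KO and 8.11 ± 0.38 in WT (SD, n = 3 each). For miR-148b the figures were 7.35 ± 0.38 in Homo KO, 7.54 ± 0.23 in Hete KO and 7.71 ± 0.41 in WT. The exact permutation p for these hairpins lay between 0.4 and 0.9. Differences as large as that of miR-148a in Homo KO against WT, 0.09, were reached by 83.0% of the 141 hairpins, and as large as that of miR-148b, -0.36, by 35.5%.

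**Figure D4:**
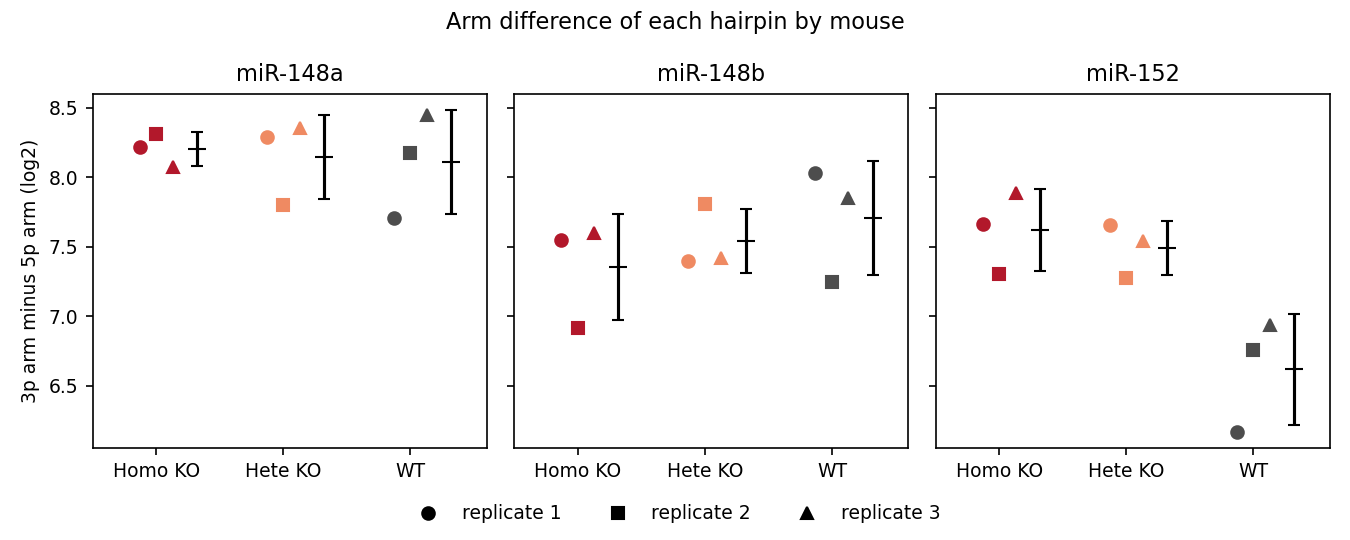
Points give the 3p level minus the 5p level (log2) of each hairpin in each mouse, with mean and SD (n = 3) beside them. For miR-152 the 6 knockout mice lie between 7.28 and 7.89 and the WT mice between 6.17 and 6.93, and the genotypes overlap for miR-148a and miR-148b.

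Among the arms, miR-148a-3p and miR-152-3p had the most similar courses of the 3 guides over the 9 libraries (Pearson r = 0.83, Spearman rho = 0.80), and r was 0.76 after the genotype means were removed. Between miR-148b-3p and miR-148a-3p r was 0.38 over the 9 libraries and 0.64 within genotypes, and between miR-148b-3p and miR-152-3p it was -0.04 and 0.09 within genotypes. The 5p arm nearest to miR-148a-3p was miR-148b-5p, with r = 0.85 and 0.89 within genotypes. The arms of miR-152 had r = -0.37 over the 9 libraries and 0.02 within genotypes. These values are descriptions over 9 libraries that share 1 normalization. By the same measure, the tested miRNAs outside the family nearest to miR-148a-3p were miR-3965 (r = 0.90, rho = 0.79), miR-30b-5p (0.85, 0.92) and miR-27a-3p (0.80, 0.68). Nearest to miR-152-3p were miR-27a-3p (r = 0.90, rho = 0.70), miR-195a-5p (0.88, 0.87) and miR-30b-5p (0.83, 0.90), so miR-27a-3p and miR-30b-5p stood near both. Nearest to miR-148b-3p were miR-101b-3p (r = 0.89, rho = 0.85), miR-150-3p (0.84, 0.72) and miR-196b-5p (0.81, 0.76).

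The letters of the family seed also stand at bases 1 to 7 of miRNAs of the miR-130 and miR-301 family, which are shown with them in capitals because their own seed overlaps that of miR-148 shifted by 1 base.
miR-130a-3p: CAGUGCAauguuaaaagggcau
miR-301a-3p: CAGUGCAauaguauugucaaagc
miR-130b-3p: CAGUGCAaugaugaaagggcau
The miR-130 family is known to repress PPARG, the master regulator of adipocyte differentiation. Of 6 miRNAs listed for this overlapping seed 4 were in the files and tested, and none was called, with 2 positive and 2 negative log2 fold changes and a median of 0.09 in Homo KO against WT (0.07 over all tested miRNAs). In Hete KO against WT the median was -0.01 (-0.02 over all). miR-130a-3p averaged 10.67 in Homo KO, 10.60 in Hete KO and 9.92 in WT, with a log2 fold change against WT of 0.76 ± 0.19 in Homo KO and 0.68 ± 0.19 in Hete KO (SE, limma adjusted p = 0.0526 and 0.101). That of miR-301a-3p was -0.01 ± 0.21 in Homo KO and -0.03 ± 0.21 in Hete KO.

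Lists of miRNAs with roles like those of the family are set against the share called among all tested miRNAs, 3.27% in Homo KO and 0.409% in Hete KO against WT. Of miRNAs linked to cholesterol export and the LDL receptor 14 of 16 were tested and none was called. Their median log2 fold change was 0.16 in Homo KO (11 of 14 positive, against 55.0% of all tested miRNAs) and 0.10 in Hete KO (10 of 14 positive, against 47.2%). Its most abundant members, miR-26a-5p and miR-10b-5p, had 0.34 ± 0.12 and 0.13 ± 0.12 in Homo KO, and 0.30 ± 0.12 and 0.03 ± 0.12 in Hete KO (SE). Of miRNAs linked to DNA methyltransferases besides this family all 9 were tested and none was called. Their median was -0.0031 in Homo KO and 0.04 in Hete KO. The most abundant of them, miR-143-3p, was at 0.19 ± 0.19 in Homo KO and 0.00 ± 0.19 in Hete KO. Next came miR-126a-3p, typical of endothelium, at -0.27 ± 0.19 in Homo KO and -0.51 ± 0.19 in Hete KO.

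Of miRNAs reported to promote adipogenesis 15 of 16 were tested and none was called, with 7 positive in Homo KO and 7 in Hete KO. Their most abundant members were miR-143-3p (0.19 ± 0.19 in Homo KO and 0.00 ± 0.19 in Hete KO) and miR-30a-5p (0.25 ± 0.09 in Homo KO and 0.21 ± 0.09 in Hete KO). Of miRNAs reported to restrain adipogenesis 15 of 16 were tested, and miR-221-3p, a repressor of the cell cycle inhibitor p27, fell in Homo KO by 0.96 ± 0.21 on the log2 scale (SE, limma adjusted p = 0.0424). Adjusted for how many miRNAs sat at each library's minimum, miR-221-3p was not called, nor was any other tested miRNA. That number went partly with genotype, so depth and genotype cannot be told apart here. The median of that list was 0.04 in Homo KO and -0.15 in Hete KO, with let-7a-5p at -0.19 ± 0.17 in Homo KO and -0.33 ± 0.17 in Hete KO, and let-7d-5p at 0.10 ± 0.18 in Homo KO and 0.15 ± 0.18 in Hete KO. Set against these lists, the 3p arms of the family had log2 fold changes of -0.06 to 0.37 in Homo KO and 0.07 to 0.24 in Hete KO.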

How the data were processed

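Small RNA of subcutaneous adipose tissue was measured in 9 mouse libraries. Trizol extraction and the TruSeq small RNA kit were used, per the labels' protocols, and the build was mm10, per the submitters' processing notes. Aligner, counting rule, miRNA annotation and normalization method: not given in the sources used here. Deposited files give 1 log2 value per mature miRNA. From the values, the authors had quantile-normalized log2(x + 1) levels: all libraries share the highest value of 19.99, and the levels raised back to the linear scale sum to between 6681250 and 6681288. Quantile normalization hides differences in total miRNA content and makes the levels steps in a shared ranking. The number of reads is unknown, so no counting interval is given.

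Tests covered miRNAs with a mean of at least 3.46, which is log2(10 + 1), that exceeded the lowest value of at least 3 libraries. The comparison of genotypes used limma (version 3.58.1, R 4.3.3; variance trend, all 9 libraries in the fit, no covariate), with Benjamini-Hochberg adjustment over all tested miRNAs and a threshold of 0.05. Arm differences were compared by exact permutation tests. The limma step was checked on simulated data with known changes. Alternatives were a pseudocount of 10, no filter and a stricter filter, median scaling, no variance trend, a block for the replicate number, a fit of only the groups compared, covariates for muscle miRNAs and for how many miRNAs sat at the lowest value, and libraries left out.

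The family arms, the miRNA lists and the tests were chosen with earlier results of these data known. The arms named were all 6 of the family. By rule, the text also names the 3 tested miRNAs nearest in pattern to each 3p arm. Of each list chosen by role or seed it names the 2 most abundant members and every called member. Called cell type markers are named as well, and miR-26a-1-3p as a case outside the arm comparison. Sequences and hairpin positions come from RefSeq (GRCm38.p6, the assembly mm10 names) and host genes from GENCODE vM21.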

Additional observations from a re-analysis of the deposited data

How the results depend on the processing

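The count of family arms called was 0 in all 3 comparisons under every alternative run, so no setting brought an arm past the threshold. The log2 fold change of miR-152-5p stayed negative, between -0.86 and -0.49 in Homo KO and between -0.86 and -0.46 in Hete KO against WT, with limma adjusted p from 0.0655 to 0.438 and from 0.0864 to 0.761. The stricter filter left out miR-152-5p and miR-148b-5p. Fold changes near 0 changed sign, the cause of which was not tested: for miR-148b-5p -0.094 in Homo KO against Hete KO with the muscle covariate and -0.047 in Hete KO against WT with the lowest-value covariate and, without the 3 muscle-rich libraries, -0.066 for miR-148b-5p, -0.0091 for miR-152-3p and -0.029 for miR-152-5p in Homo KO against Hete KO. The share of miR-148b-5p in Hete KO moved to 0.0354% from 0.0339% when 1 was not subtracted.

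Over all tested miRNAs, the number called in Homo KO against WT was 16, and it was 9 without a filter, 25 with the stricter filter, 3 with the muscle covariate, 0 with the lowest-value covariate and 8 without the 3 muscle-rich libraries. With 1 library left out it was 2 to 25: 2 without Homo KO replicate 1 or 3, 3 without Homo KO replicate 2 or WT replicate 1, 6 without Hete KO replicate 3, 7 without WT replicate 2 and 25 without Hete KO replicate 2. In Hete KO against WT it was 2, and 10 with the stricter filter, 1 without the variance trend or with only the groups compared, 0 with the lowest-value covariate and 10 without the muscle-rich libraries. With 1 library left out it was 1 to 24: 24 without Hete KO replicate 1, 12 without WT replicate 3, and 1 without Hete KO replicate 2 or 3, WT replicate 1 or Homo KO replicate 3. In Homo KO against Hete KO it was 4 without the muscle-rich libraries. With the replicate number as a block the counts were 25 in Homo KO and 15 in Hete KO against WT. The numbers share no stated batch or litter, deviations of same-numbered libraries correlated between -0.28 and 0.55, and the best match in another genotype had the same number in 8 of 18 cases.

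With 1 library left out, log2 fold changes ranged from -0.15 to 0.078 for miR-148b-3p and from -0.017 to 0.54 for miR-148b-5p in Homo KO against WT, and from -0.023 to 0.30 for miR-152-3p in Hete KO against WT. In Homo KO against Hete KO they ranged from -0.22 to 0.012 for miR-148b-3p, -0.25 to 0.30 for miR-148b-5p, -0.0091 to 0.27 for miR-152-3p and -0.11 to 0.16 for miR-152-5p. The arm difference of miR-152 kept its direction against WT, at 0.77 to 1.16 in Homo KO and 0.65 to 1.03 in Hete KO, and was -0.0073 to 0.29 in Homo KO against Hete KO. That of miR-148a ranged from -0.11 to 0.26 in Homo KO and -0.16 to 0.21 in Hete KO against WT, and from -0.12 to 0.16 in Homo KO against Hete KO. For miR-148b it was -0.31 to 0.031 in Homo KO against Hete KO.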
